A study of Mus musculus and Homo sapiens with 6 samples.

Results

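The collagen chain genes are the protein-coding mouse genes whose symbol reads Col, a number, a, a number. The rule found 44 of them among 21900 protein-coding genes, and all 44 were accounted for. Open chromatin at these genes was read from ATAC-seq peak lists of NMuMG, an established line of epithelial cells from the mammary gland of the mouse. In ATAC-seq the Tn5 transposase cuts accessible DNA and inserts sequencing adapters. Cells were lysed in a buffer with Triton X-100, the nuclei were treated with Tn5, and the fragments went through 8 cycles of PCR. Libraries were prepared from 25000, 50000, 75000 and 100000 cells, 1 library for each cell number, from cells labelled NMuMG for line and genotype, 0 h for time and fewer than 10 passages. All 4 groups shared the growth medium with 10% serum, and the labels name no treatment. The series also has 2 human MDA-MB-231 samples, which were left aside. With 1 library per cell number there was no replicate error, and no difference between cell numbers was tested.

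Collagens are built of polypeptide chains wound into a triple helix, each chain made by its own gene. Fibrillar collagens form the cable-like fibrils of skin, bone and cartilage and are made mainly by fibroblasts and related mesenchymal cells. Type IV collagen forms the sheet-like network of basement membranes, on which epithelial cells such as those of the mammary ducts rest. Transmembrane collagens stay anchored in the cell surface, where type XVII serves in the hemidesmosome of basal epithelial cells. Other families are the FACITs (fibril-associated collagens with interrupted triple helices), which decorate fibrils, the beaded filaments of type VI, the multiplexins of basement membrane zones, the short chain networks, and the anchoring fibrils of type VII.

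Most collagen genes had no listed peak at either end of the gene, and most of those with peaks in every library carried them in the gene body. A peak overlapping the 1 kb to either side of an annotated gene end (a gene-end peak) was found in all 4 libraries at 6 of 44 collagen genes, which is 13.6%, against 43.9% of all protein-coding genes. These 6 were Col23a1, Col1a1, Col6a2, Col18a1, Col4a1 and Col4a2. Col5a1 had such a peak in 3 libraries, Col6a1 in 2 and Col14a1 in 1, and 35 collagen genes had none. Peaks centred inside the gene and clear of its ends (inside peaks) were present in all 4 libraries at 20 of 44 genes (45.5%), against 22.4% of all protein-coding genes. Inside peaks in all 4 libraries with no gene-end peak in any were found at 14 of 44 genes, against 7.43% of all protein-coding genes. Among genes with inside peaks in all 4 libraries, this was 14 of 20, against 1628 of 4896 for all protein-coding genes. These shares are not matched for gene length. In 11 of 44 genes (25%) no peak was listed at the ends or inside in any library, against 35.8% of all protein-coding genes. With only the peaks from each list's median score up, the order of these 2 shares turned, with 22 of 44 collagen genes (50%) without a peak, against 44.4% of all protein-coding genes. When every peak centred in the gene was counted, those near its ends included, the inside shares were 22 of 44 (50%), against 37.2%. The lowest score in the lists is 8, so a gene without a listed peak may have signal under that level.

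**Figure D1:**
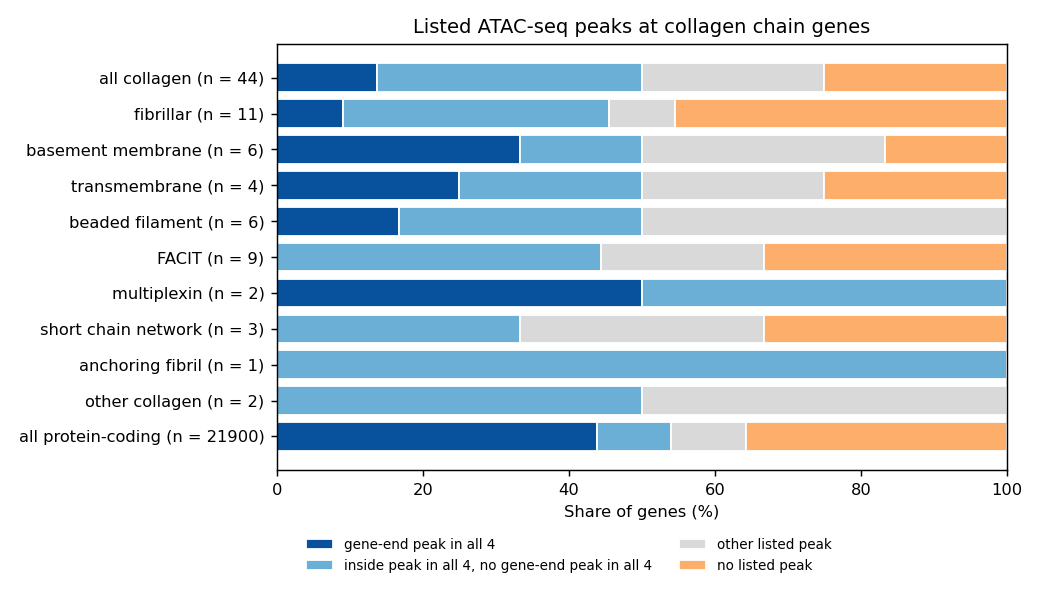
Share of genes (horizontal axis, percent) in 4 exclusive states, for all 44 collagen genes, for each collagen class and for all 21900 protein-coding genes, with the number of genes in parentheses. The dark blue part, a gene-end peak in all 4 libraries, covers 13.6% of collagen genes and 43.9% of all protein-coding genes, and the classes hold between 1 and 11 genes each.

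Collagen genes are long, and long genes have more room for inside peaks. Their median length was 114 kb, against 17.1 kb for all protein-coding genes. Compared by length, the share with an inside peak in all 4 libraries was 0 of 9 below 30 kb (all genes of that length, 10.5%), 5 of 9 or 55.6% between 30 and 100 kb (37.1%), 13 of 22 or 59.1% between 100 and 300 kb (61.6%), and 2 of 4 above 300 kb (63.0%). In the largest of these groups the inside share was close to that of all genes of the same length. The gene-end share was lower in every length group, with 2 of 9 or 22.2% below 30 kb (40.9%), 0 of 9 between 30 and 100 kb (53.6%), 4 of 22 or 18.2% between 100 and 300 kb (45.9%) and 0 of 4 above 300 kb (25.7%). The share with no listed peak was 44.4% (45.2%), 33.3% (19.0%), 13.6% (14.0%) and 25% (17.6%) from the shortest to the longest group. No test was made of these shares, because the gene family was chosen with earlier results of these lists known.

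**Figure D2:**
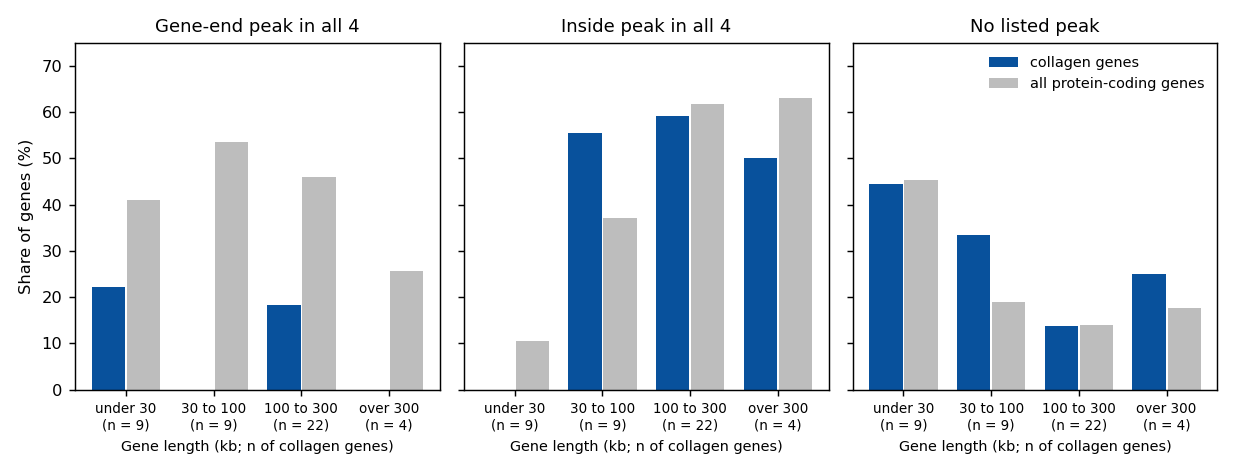
Share of genes (vertical axis, percent) with a gene-end peak in all 4 libraries (left), with an inside peak in all 4 (middle) and with no listed peak (right), in 4 groups of gene length in kb, for collagen genes (blue) and all protein-coding genes (grey). The blue bars of the left panel are lower than the grey bars in each length group, while between 100 and 300 kb the middle bars differ little, at 59.1% and 61.6%.

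The fibrillar collagens, the largest class, had the most genes lacking any peak. Their share without a peak was 45.5%, against 35.8% of all protein-coding genes. It was 33.3% in both the FACIT and the short chain network class. These shares are not matched for gene length. The median length was 45.1 kb for fibrillar, 75.15 kb for FACIT and 27.5 kb for short chain network genes, against 17.1 kb for all protein-coding genes. Of all genes between 30 and 100 kb, 19.0% had no listed peak, and of those below 30 kb, 45.2%. Of 11 fibrillar genes, 1 had an end peak in every library, 4 had inside peaks in all 4, and 5 (Col1a2, Col2a1, Col3a1, Col5a2 and Col11a1) had no listed peak at all. Col1a1, which encodes the alpha 1 chain of type I collagen, was the exception at its end. Its peak lay at 94936601 to 94937400 on chromosome 11, just inside the lower annotated end of the gene (94936224 to 94953042), and scored 33, 30, 29 and 34 from 25000 to 100000 cells. These scores are the authors' own values for each peak, without a stated unit. Ranked within each list, with ties at their middle rank, they stood at percentiles 84.0, 76.3, 76.9 and 80.0. In all 4 libraries the centre of the highest Col1a1 peak was 676 to 801 bp from the gene end.

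Col1a2, which encodes the alpha 2 chain of type I collagen, had no listed peak at its ends or inside. The gene lies at 4505618 to 4541543 on chromosome 6. The nearest peak of any library beyond its upper end was 4.16 kb away, and the nearest beyond its lower end was 143 kb away. The 2 chains of type I collagen thus differed in these lists, Col1a1 with a peak in every library and Col1a2 with none. Col3a1, the type III chain of extensible tissues, and its neighbour Col5a2, a chain of the type V collagen found within type I fibrils, lay on chromosome 1 in a stretch of 739 kb without a listed peak in any library. Of 55680 gaps between neighbouring peak regions of the genome, 448 were at least as long, and the median gap was 12.7 kb.

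The start regions of Col1a2 and Col3a1, taken from RefSeq (GRCm38.p6) from 250 bases before to 50 bases after the annotated start, are shown as start regions without a peak, beside those of Col6a2 and Col18a1 given further on. Capitals mark letters that match, on either strand, the GC box with the letters GGGCGG, the CCAAT box named after its letters, the TATA box written as TATAAA, the AP-1 motif written as TGANTCA or the TEAD motif written as GGAATG. None of these motifs contains another, and a match is a description of the letters only.
Col1a2, chr6:4505368-4505667, plus strand: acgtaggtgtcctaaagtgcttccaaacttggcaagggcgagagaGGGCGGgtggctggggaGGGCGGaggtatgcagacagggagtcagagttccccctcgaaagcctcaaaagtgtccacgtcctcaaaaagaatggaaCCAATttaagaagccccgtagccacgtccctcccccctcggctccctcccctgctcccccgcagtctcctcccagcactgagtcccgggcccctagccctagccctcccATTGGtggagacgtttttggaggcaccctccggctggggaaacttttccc
Col3a1, chr1:45311288-45311587, plus strand: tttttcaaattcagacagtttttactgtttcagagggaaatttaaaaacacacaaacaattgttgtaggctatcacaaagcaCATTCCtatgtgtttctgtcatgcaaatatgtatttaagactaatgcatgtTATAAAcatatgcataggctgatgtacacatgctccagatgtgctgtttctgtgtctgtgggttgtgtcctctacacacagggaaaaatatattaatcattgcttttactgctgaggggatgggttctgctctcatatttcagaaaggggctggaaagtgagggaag
The Col1a2 window was 61% G and C and held 2 GC boxes and 2 CCAAT boxes, while the Col3a1 window was 37.7% G and C with 1 TATA box and 1 TEAD motif. Of 21263 such windows of protein-coding genes, 46.2% held the GC box, 38.2% the CCAAT box, 12.6% the TATA box, 6.99% the AP-1 motif and 13.6% the TEAD motif, and their median G and C content was 56.3%. Peaks covered no base of either window in any library.

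Among the other fibrillar genes without a peak, Col2a1, the main collagen of cartilage, had its nearest peak 5.002 kb below the gene, and Col11a1, a cartilage fibril chain, had its nearest peak 76.9 kb away. Col11a2, also of cartilage fibrils, had 1 inside peak with a score of 9 at 25000 cells and none in the other libraries. Col5a1, the alpha 1 chain of type V collagen that starts fibril assembly, had peaks at its annotated start in 3 libraries. Its highest scores there were 13, 11 and 17 from 50000 to 100000 cells, with no listed peak at 25000 cells. It also had inside regions in all 4 libraries at 30.1 kb from the start (scores 17, 19, 13 and 13) and at 50.2 kb (13, 20, 10 and 9). Col5a3 had no gene-end peak and 1 inside region in all 4 libraries, 10.7 kb from its start, with scores of 15, 22, 15 and 14.

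Col24a1 and Col27a1, the 2 fibrillar chains that diverged early from the classical ones, had inside peaks far from their starts. Col24a1 is 260 kb long, and its highest inside region, 128 kb from the start, scored 28, 32, 40 and 27. A further 2 of its regions were listed in all 4 libraries, at 144 kb (8, 13, 9 and 8) and at 201 kb (16, 22, 13 and 27). Col27a1 scored 31, 28, 36 and 32 at 101 kb from its annotated start and 8, 23, 18 and 23 at 33.7 kb. Its only peaks near that start, 1.36 kb and 2.19 kb beyond it, had scores of 8 or 9 and were in 2 libraries and 1 library.

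The basement membrane collagens split by gene pair. The 6 type IV genes are arranged in 3 head-to-head pairs, and in these lists the Col4a1 and Col4a2 pair, which makes the type IV network of nearly all basement membranes, had gene-end peaks in all 4 libraries, while Col4a3 with Col4a4 and Col4a5 with Col4a6 had none in any. Col4a1 and Col4a2 share their peaks, so that they are 1 locus and not 2 observations. Counted once, the collagen genes with a gene-end peak in all 4 libraries come to 5 of 43.

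The annotated starts of Col4a1 and Col4a2 on chromosome 8 lie 21 bp apart, at 11312826 on the minus strand and 11312805 on the plus strand, so that the genes overlap at their starts. The peaks over them had highest scores of 13, 20, 10 and 15 from 25000 to 100000 cells, at percentiles 42.2, 60.7, 24.5 and 46.7 of their lists. At 50000 cells 1 peak of 900 bp covered both starts. At 25000 cells 2 overlapping peaks lay between 11312651 and 11313200, at 75000 cells 2 peaks between 11312051 and 11313050, and at 100000 cells 3 peaks between 11312101 and 11313050. The 300-base start regions of the 2 genes, defined as for Col1a2, share 78 bases. The Col4a1 window was 74% G and C with 37 CpG dinucleotides, and the Col4a2 window was 73.7% G and C with 33. Listed peaks covered 300, 300, 274 and 274 of the bases at Col4a1 and 204, 300, 300 and 300 of those at Col4a2, going up in cell number.

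Inside the bodies of Col4a1 and Col4a2 the highest peak of each gene scored above the shared start. Every other inside region listed in all 4 libraries scored above the start in some libraries but not in all. Col4a1 had 3 inside regions in all 4 libraries, the highest 52.8 kb from its start at 11259651 to 11260500, with scores of 41, 38, 42 and 47. That region was 1172 bp from an end of Gm32709, a predicted gene. The other 2 scored 24, 16, 31 and 28 at 33.3 kb and 11, 23, 10 and 16 at 97.4 kb. Col4a2 had 4 inside regions in all 4 libraries. They scored 20, 19, 25 and 32 at 27.6 kb from its start, 12, 16, 15 and 20 at 33.7 kb, 30, 30, 35 and 38 at 59.5 kb, and 12, 12, 12 and 13 at 80.2 kb. The region at 27.6 kb was 344 bp from an end of Gm46030, another predicted gene. The highest inside peak of either gene was above every peak at the shared start in each of the 4 libraries.

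The other type IV chains had few or no peaks. Col4a3 and Col4a4, which with Col4a5 form the network of the kidney glomerulus, had 1 low inside peak at Col4a3 in 2 libraries (10 at 50000 and 9 at 75000 cells) and none at Col4a4. Col4a5 had an inside peak of 9 at 50000 cells. Col4a6, expressed with Col4a5 in some epithelial basement membranes, had 2 inside regions in every library, scoring 10, 21, 16 and 17 at 34.5 kb from its start and 18, 21, 18 and 28 at 110.6 kb. Col4a6 is 309 kb long, so that its mean density was 0.648 inside peaks per 100 kb, against 4.95 at Col4a2 and 3.71 at Col4a1.

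**Figure D3:**
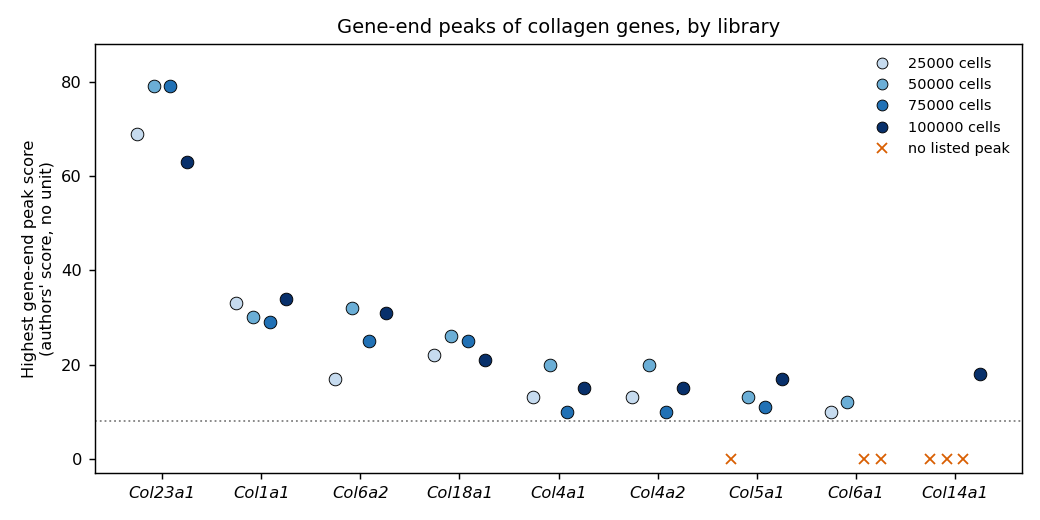
Highest score of the gene-end peaks (vertical axis, authors' score without unit) of the 9 collagen genes with such a peak in at least 1 library, coloured by cell number, with crosses at 0 where no peak was listed and a dotted line at 8, the lowest score of the lists. Col23a1 scores between 63 and 79 through a peak nearest to the end of Phykpl, and the points of Col4a1 and Col4a2 are the same peaks shown at both genes.

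Of the 4 transmembrane collagens, only Col23a1 had gene-end peaks, and its high scores came from a peak at the next gene. The peak at 51584251 to 51585250 on chromosome 11, beyond the upper annotated end of Col23a1, scored 69, 79, 79 and 63, at percentiles 97.9, 97.2, 97.9 and 94.5 of the lists. Its centre was 4 to 96 bp from an end of Phykpl. At the annotated start of Col23a1 the peaks were low, with 11, 10 and 8 from 50000 to 100000 cells and none at 25000 cells. Just inside its far end a further peak scored 19, 8 and 16 at 25000, 75000 and 100000 cells. Without the peak nearest to Phykpl, each library thus still had a peak at 1 end or the other, but neither end had one in all 4. Inside the gene, 1 region was listed in all 4 libraries, 250 kb from the start, with scores of 20, 33, 47 and 39.

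Col17a1, the hemidesmosome collagen of basal epithelial cells, was without gene-end peaks and had 1 inside region in all 4 libraries. That region, 33.0 kb from its start, scored 27, 29, 9 and 17, and 2 other inside regions scored between 9 and 12 in 3 and 2 libraries. Col13a1, a collagen of cell contacts and the neuromuscular junction, had an inside peak of 8 at 100000 cells and nothing else. Col25a1, a collagen of neurons and the longest of the 44 genes at 420 kb, had no listed peak, and the nearest was 44.1 kb away. Between the classes, gene-end peaks in all 4 libraries thus numbered 1 of 11 for fibrillar, 2 of 6 for basement membrane and 1 of 4 for transmembrane collagens, where the basement membrane count is 1 shared start and the transmembrane count rests on different ends in different libraries once the peak nearest to Phykpl is set aside. Inside peaks in all 4 libraries numbered 4 of 11, 3 of 6 and 2 of 4. Of all protein-coding genes, 43.9% had gene-end peaks and 22.4% had inside peaks in all 4 libraries. The class counts are not matched for length, and the median lengths were 45.1, 138 and 218 kb in the same order. Of all genes between 30 and 100 kb, 37.1% had inside peaks in all 4 libraries, and of those between 100 and 300 kb, 61.6%.

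Inside peaks were also counted per length of gene. Averaged over the libraries, fibrillar genes had 1.29 inside peaks per 100 kb (range over libraries 1.15 to 1.43), basement membrane genes 1.31 (1.05 to 1.53) and transmembrane genes 0.5 (0.333 to 0.666), against 1.53 (1.39 to 1.66) for all protein-coding genes. The ranges of the fibrillar and basement membrane genes overlap each other, and that of the transmembrane genes lies below both. The transmembrane value pools Col17a1, at 4.92, with the longer genes Col23a1, at 0.680, Col13a1, at 0.177, and Col25a1, at 0. For all 44 collagen genes the mean was 1.38 (1.23 to 1.47). The density of all protein-coding genes was lower in longer genes, so collagen genes were also set beside genes of like length. Below 30 kb the collagen genes had 0.905 inside peaks per 100 kb, against 2.09 for all protein-coding genes. Between 30 and 100 kb they had 2.25 (2.07 to 2.53), against 1.95 (1.78 to 2.10), and between 100 and 300 kb 1.75 (1.56 to 1.82), against 1.69 (1.53 to 1.83). Above 300 kb they had 0.301, against 0.748. The ranges over libraries overlapped in both middle groups, which hold 31 of the 44 collagen genes. In the shortest and the longest group the collagen ranges lay below those of all genes. All these ranges are over lists of the same cell line and do not measure the spread between genes.

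Type VI collagen, whose chains assemble into beaded filaments around cells, showed peaks at the starts of its neighbouring Col6a1 and Col6a2 genes on chromosome 10. Col6a2 had a peak over its annotated start in all 4 libraries, with scores of 17, 32, 25 and 31. Col6a1, the chain every type VI molecule contains, had one of 10 at 25000 and 12 at 50000 cells and none in the other libraries. The start region of Col6a2 is shown because its mean score at its own start was the highest among the 35 collagen genes with an annotated strand. That mean over the libraries was 26.2, against 23.5 for Col18a1, whose score was higher at 25000 cells and equal at 75000 cells. Col1a1 had a higher mean gene-end score, at 31.5, but its strand was not given and it was not ranked. The same motifs are in capitals.
Col6a2, chr10:76623581-76623880, minus strand: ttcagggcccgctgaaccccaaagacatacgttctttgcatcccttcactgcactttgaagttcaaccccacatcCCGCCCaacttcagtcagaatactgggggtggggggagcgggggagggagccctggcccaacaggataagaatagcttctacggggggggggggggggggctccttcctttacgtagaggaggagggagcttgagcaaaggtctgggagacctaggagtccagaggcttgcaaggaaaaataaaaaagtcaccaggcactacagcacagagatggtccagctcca
This window was 56.7% G and C with 6 CpG dinucleotides and held 1 GC box. Listed peaks covered 120, 120, 120 and 170 of its 300 bases, on the side of the gene.

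Col6a3, whose chain joins the alpha 1 and alpha 2 chains, had no gene-end peak but the inside region with the highest mean score of any collagen gene. It was 1 region at 90834601 to 90835300 on chromosome 1, 9.02 kb from the annotated start, scoring 60, 56, 68 and 38. Its mean of 55.5 was close to the 55.25 of the highest Col18a1 region. Of the later-found chains on chromosome 9, Col6a5 had an inside region of 14, 28, 32 and 18 in all 4 libraries, 73.0 kb from its start. Col6a4 had 1 inside peak of 11 at 75000 cells, and Col6a6 had 2, of 9 and 11, at 100000 cells.

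The multiplexins, collagens of basement membrane zones that release anti-angiogenic fragments, had the most inside peaks per length of any collagen class, at 7.73 per 100 kb (7.28 to 8.64). This value pools 2 genes, Col18a1 at 9.62 and Col15a1 at 5.69. Single genes of other classes, Col16a1 at 7.29 and Col1a1 at 5.95, lay above Col15a1. Col18a1, the precursor of endostatin, had 11, 12, 10 and 11 inside peaks from 25000 to 100000 cells, the most of all collagen genes. Merged over libraries these were 14 regions, 8 of them found in all 4. The highest, at 77146751 to 77147700 on chromosome 10, 19.3 kb from the outer start, scored 47, 56, 51 and 67. Regions at 14.8 kb (26, 34, 22 and 52) and 24.1 kb (24, 41, 42 and 23) lay to either side of it.

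At its outer start Col18a1 had 2 peaks in every library. The peak over the start scored 22, 26, 11 and 9. The other peak, 0.755 kb downstream, scored 12, 11, 25 and 21, so that the higher of the 2 differed between libraries. The start region is printed because both the start and the gene body carried peaks in each library, with the same motifs in capitals.
Col18a1, chr10:77166481-77166780, minus strand: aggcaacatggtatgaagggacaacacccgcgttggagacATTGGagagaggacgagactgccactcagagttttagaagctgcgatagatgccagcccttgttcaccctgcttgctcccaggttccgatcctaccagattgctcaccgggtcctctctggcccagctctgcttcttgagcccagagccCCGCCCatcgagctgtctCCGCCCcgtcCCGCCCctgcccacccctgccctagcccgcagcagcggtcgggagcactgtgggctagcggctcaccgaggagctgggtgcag
It was 63.3% G and C with 16 CpG dinucleotides, 3 GC boxes and 1 CCAAT box, and listed peaks covered 300, 300, 220 and 220 of its bases. Col18a1 has a second annotated start inside the gene. No listed peak lay within 1 kb of that start in any library, and the nearest region, upstream of it at 77116351 to 77117150, scored 21, 26, 32 and 15.

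Col15a1, the other multiplexin, had no gene-end peak and 6, 7, 6 and 5 inside peaks. Its 2 highest regions lay toward the far end of the gene, at 103 kb from the annotated start with scores of 54, 37, 56 and 50 and at 86.0 kb with 29, 40, 37 and 50. A further 2 regions were found in all 4 libraries, at 50.5 kb (23, 24, 29 and 38) and 70.6 kb (14, 14, 10 and 12). The regions at 86.0 and 70.6 kb were 219 and 524 bp from the ends of the predicted genes Gm52732 and Gm52734, so that they may be counted with either gene.

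**Figure D4:**
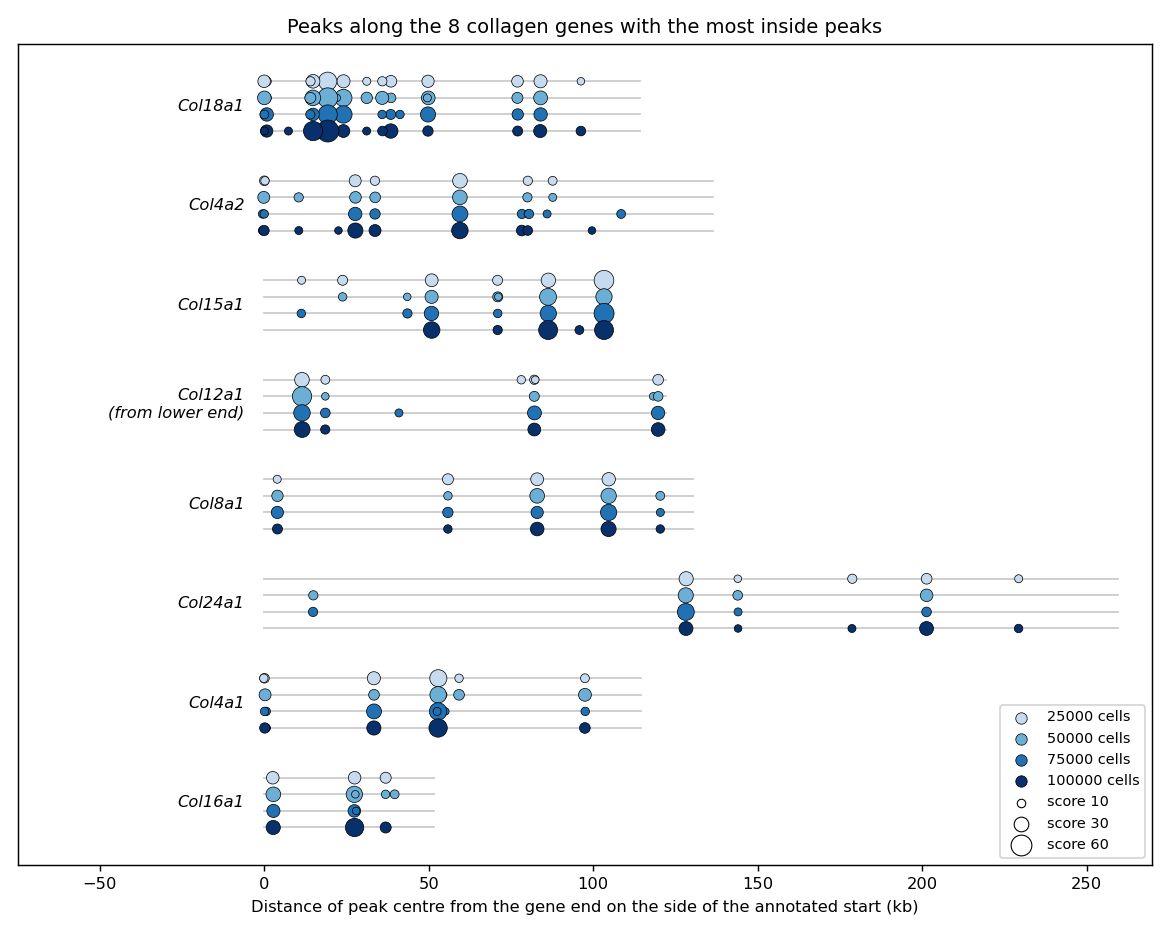
Position of listed peaks along the 8 collagen genes with the most inside peaks, as the distance of each peak centre in kb (horizontal axis) from the gene end on the side of the annotated start, or from the lower end for Col12a1. Each gene has 4 lines, for 25000 to 100000 cells from top to bottom, and the area of a circle grows with the score, with columns of circles marking regions found in all 4 libraries, such as those of Col18a1 around 19.3 kb with scores up to 67.

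None of the 9 FACIT genes had an end peak in every library, against 43.9% of all protein-coding genes. Inside peaks in all 4 libraries were found at 4 of the 9, against 22.4%. Col12a1, which links fibrils in dense connective tissue, had no gene-end peak and 4 inside regions in every library. They scored 30, 52, 38 and 35 at 11.5 kb from the lower end of the gene, 11, 8, 13 and 12 at 18.6 kb, 12, 14, 27 and 23 at 82.2 kb, and 16, 13, 25 and 26 at 120 kb, which is 2.42 kb from its upper end. Col16a1, found beside fibrils and at epithelial junctions, had 2 inside regions in all 4 libraries, with 22, 30, 24 and 28 at 2.56 kb from its start and 22, 37, 22 and 47 at 27.6 kb. The region at 27.6 kb was 840 bp from an end of the predicted gene Gm46871.

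Col14a1, a fibril-associated chain of soft tissues, had a peak beyond its lower end at 100000 cells only, with a score of 18, and an inside region of 17, 16, 23 and 12. Col22a1, of tissue junctions such as that of muscle and tendon, had an inside region of 16, 13, 18 and 16. Col19a1 had inside peaks of 14 at 25000 and 17 at 100000 cells, and Col20a1 had 1 of 12 at 50000 cells. The 3 type IX genes Col9a1, Col9a2 and Col9a3, which coat cartilage fibrils, had no listed peak in any library, and the nearest were 40.1, 15.0 and 8.20 kb away.

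The remaining classes hold few genes. Col8a1, a short chain collagen of vessel walls and of the membrane below the corneal endothelium, had 4 inside regions in all 4 libraries, scoring 9, 18, 21 and 14 at 3.99 kb from its start, 17, 10, 15 and 10 at 55.8 kb, 23, 30, 21 and 26 at 83.0 kb, and 25, 33, 37 and 32 at 105 kb. Its partner Col8a2 had 1 inside peak of 13 at 100000 cells. Col10a1, the collagen of hypertrophic cartilage, had none, and the nearest was 7.18 kb away. Col7a1, the chain of the anchoring fibrils that fasten epithelial basement membrane to the tissue below, had an inside region of 33, 25, 24 and 24, at 24.5 kb from its start. Col26a1 had inside peaks of 8 or 10 in 3 libraries, and Col28a1 had inside peaks scoring up to 14, 9, 9 and 12 in the 4 libraries, but no region of it was listed in all 4.

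Inside regions found in all 4 libraries had a higher median score than those of 1 library, with some overlap. The inside peaks of collagen genes, 67, 79, 75 and 80 from 25000 to 100000 cells, merged into 114 regions. Of these, 46 (40.4%) were in all 4 libraries and 39 (34.2%) in 1, against 39.5% and 30.3% of the 22008 inside regions of all protein-coding genes. Regions found in all 4 libraries had a median mean score of 22.1 and a lowest mean score of 9.5. Those of 1 library had a median score of 9 and a highest score of 14. The lists start at a score of 8, so a region scoring near that value can be missing from some lists by the cutoff alone. Going up in cell number, regions of 1 library numbered 3, 12, 9 and 15, while the lists held 38878, 43832, 41509 and 45530 peaks, and the depth behind each list is unknown. The number of collagen genes with a gene-end peak was 7, 8, 7 and 8 (15.9%, 18.2%, 15.9% and 18.2%), against 46.9%, 48.9%, 48.4% and 49.5% of all protein-coding genes.

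The highest score of each gene was summarised over genes. Among genes with a gene-end peak in all 4 libraries, the median highest score was 19.5, 28, 25 and 26 at the 6 collagen genes, against 27, 35, 32 and 37 at all 9613 such protein-coding genes. Among genes with inside peaks in all 4 libraries, the median of the highest inside score was 26, 29.5, 33.5 and 30 at the 20 collagen genes, against 22, 27, 24 and 28 at all protein-coding genes. Both collagen medians rest on few genes, with Col4a1 and Col4a2 entering the 6 with the same peaks. Both sets are limited to genes that had a peak in every library, and the inside medians take no account of length, although a longer gene with more inside peaks has more chances of a high one.

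Strand was given for 35 of 44 collagen genes (79.5%). Of these, 4 had a peak within 1 kb of the outer annotated start in all 4 libraries (11.4%), against 42.9% of 17492 protein-coding genes with an entry. At the far end this held for 1 of 35, Col23a1, through the peak nearest to Phykpl, against 5.29%. Inside peaks were spread over the length of the collagen genes. The fifth of the gene nearest the start held 19.3%, 17.9%, 19.0% and 18.6% of them from 25000 to 100000 cells, against 23.5%, 23.4%, 23.8% and 22.8% for all protein-coding genes with an entry.

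Genes whose products modify, cut and bind collagen were read in the same lists, beside 43.9% of all protein-coding genes. Of 26 genes for collagen processing, 15 had end peaks in every library (57.7%), 4 had one in some libraries and 7 in none. P4hb, a subunit of the prolyl hydroxylase that stabilises the triple helix, scored 60, 92, 73 and 96, and P4ha1, its catalytic partner, scored 36, 62, 73 and 94. Colgalt1, which adds galactose to hydroxylysine, scored 56, 70, 65 and 79, and Ppib, a prolyl isomerase of the endoplasmic reticulum, scored 51, 68, 62 and 48. P4ha3, Plod2, Tll1 and Tll2 had no gene-end peak, though each had an inside peak in at least 2 libraries. In the windows of P3h1 and, in 2 libraries, of Fkbp10, the highest peak was nearer to the end of a neighbouring gene.

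Of 7 crosslinking genes, 2 had end peaks in every library (28.6%), Tgm2, a transglutaminase (19, 14, 16 and 22), and Loxl3, whose peak (24, 8, 14 and 21) was nearer to the end of Dok1. Lox, Loxl1, Loxl2 and Pxdn, oxidases and a peroxidase that crosslink fibrillar and type IV collagen, had none at their ends, though Loxl1 and Pxdn had inside peaks in each library. Of 10 collagen receptor genes, 5 had end peaks in all 4 libraries (50%) and 5 in none. Itgb1, the beta subunit shared by the collagen-binding integrins, scored 31, 50, 40 and 57, with Itga1 at 33, 30, 31 and 43, Itga2 at 23, 41, 19 and 36 and Itga10 at 15, 20, 24 and 24. Itga11, Ddr2, Mrc2 and Gp6, had no gene-end peak, and of these Itga11, Ddr2 and Mrc2 had inside peaks in each library. Gp6 is the collagen receptor of platelets.

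Of 13 genes for other basement membrane proteins, 4 had end peaks in every library (30.8%) and 4 in some. Dag1, the dystroglycan gene, scored 38, 47, 58 and 58, the heparan sulfate proteoglycan gene Agrn 30, 38, 44 and 39, the integrin ligand gene Npnt 12, 11, 18 and 21, and the collagen-binding protein gene Sparc 8, 17, 15 and 18. Egfl6, Frem1, Frem2 and Smoc1 had none at their ends, and of these Smoc1 had inside peaks in every library.

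**Figure D5:**
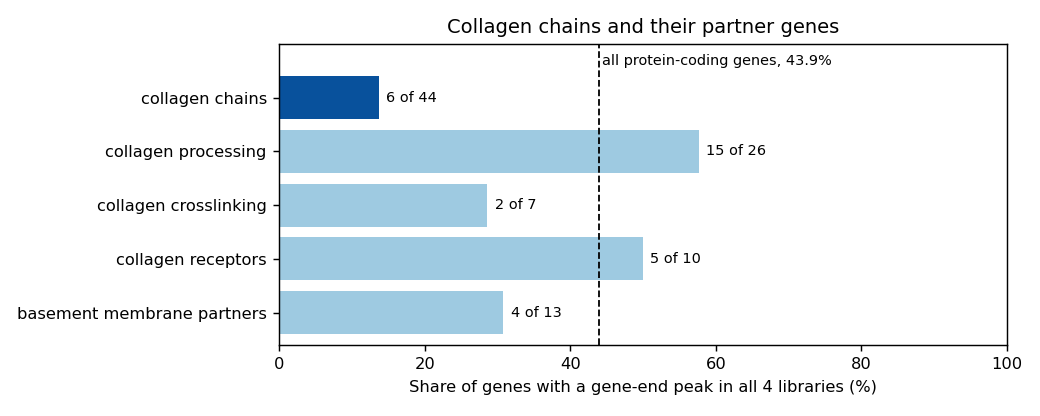
Share of genes (horizontal axis, percent) with a gene-end peak in all 4 libraries, for the collagen chains and for 4 lists of genes that process, crosslink, bind or accompany collagen, with the counts beside the bars. The dashed line marks 43.9%, the share of all protein-coding genes, with the collagen chains below it at 6 of 44 and the processing genes above it at 15 of 26.

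The label of the line was checked on marker genes. Of 6 epithelial markers, 4 had end peaks in every library (Cdh1, Krt8, Krt18 and Jup), Cldn7 had one of 8 at 25000 cells and Epcam had none. The Cldn7 peak had the lowest score of the lists and was nearer to an end of Elp5. Of 6 fibroblast markers, the cell type known for fibrillar collagen, none had a gene-end peak in any library, and 4 (Thy1, Dcn, Lum and Fap) had no listed peak at all, while Pdgfra and Pdgfrb had inside peaks in all 4. None of 4 endothelial markers had a gene-end peak, though Cdh5 had an inside peak in all 4 libraries and Pecam1 in 3. Of 4 blood cell markers, 2 (Cd68 and Spi1) had end peaks in every library. These counts stand beside the 43.9% of all protein-coding genes with such peaks. The part of contaminating cells in the collagen peaks was not tested.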

How the data were processed

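The authors deposited 1 peak list per library, giving the place and score (whole numbers) of each peak. What the deposited score means is not given in the sources used here, nor are peak caller settings, a Tn5 shift or thinning of reads. Per the submitters' processing notes, Bowtie 0.12.8, Picard 1.107, bedtools 2.17.0, SAMtools and cutadapt were used, with builds mm10 and hg19, and mm10 was taken for the mouse lists. Scores were used only to describe and rank peaks within a list. No read counts come with the lists, so depth is unknown. No comparison was tested.

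Gene positions came from RefSeq's gene table (assembly GRCm38.p6, which mm10 also denotes), and strand and start regions from its promoter table, with 35 of 44 collagen genes matched. Col1a1, Col2a1, Col5a2, Col4a3, Col9a3, Col12a1, Col14a1, Col22a1 and Col26a1 are without an entry. With under 80% matched, no summary of base composition or motifs over the family was made. Overlaps needed at least 1 bp and were computed with Python 3.11.15 and pandas 2.3.3, and were checked on 600 constructed genes, all placed as built. Overlapping peaks of the 4 lists were merged into regions to compare libraries.

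The members, classes and lists were chosen with earlier results of these data known. No sequence is printed for Col4a1 and Col4a2. Named were all members. Of every other list of collagen-related genes, up to 4 genes with a gene-end peak in all 4 libraries (highest mean score percentile) and up to 4 with none (list order) were named, and genes with one in some libraries were only counted.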

Additional observations from a re-analysis of the deposited data

How the results depend on the processing

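The count of 6 collagen genes with a gene-end peak in all 4 libraries lay between 4 and 7 under a window of 500 bp or 2 kb, equal numbers of top peaks, merged peaks, peak centres, the removal of peaks nearer to another gene, annotated starts only (internal ones included or not, 35 genes), and only the higher-scoring peaks (those from the list's median score up, which drop Col4a1 and Col4a2). The share of all protein-coding genes lay between 33.1% and 47.5% under these settings. With a window of 5 kb the collagen count was 11, with Col4a3, Col8a1, Col12a1, Col15a1 and Col16a1 added, against 53.4% of all protein-coding genes. Leaving out each library gave 6 to 7 genes (44.2% to 45.7% of all protein-coding genes), Col5a1 being added without the 25000-cell library. With those higher-scoring peaks only, the genes with inside peaks in all 4 libraries were 13 (14.0% of all protein-coding genes). Those with no peak were 22 (44.4%), which turns the order of the 2 shares for genes with no peak. The inside peaks per 100 kb were 0.625, 0.735, 0.643 and 0.661 from 25000 to 100000 cells, against 0.644, 0.732, 0.723 and 0.766 for all protein-coding genes. At 50000 cells the collagen density was thus no longer the lower one. All these values are lower or, for genes with no peak, higher by construction, since fewer peaks were used. Far-end peaks in all 4 libraries were at 2 of 35 genes with a 2 kb window, against 9.56% of all protein-coding genes with an entry. Leaving out each library gave 20 to 21 genes with inside peaks, against 22.9% to 24.0% of all protein-coding genes. It gave 12 to 14 with no peak, against 36.4% to 36.8%. Counting any peak centred in the gene gave 22 genes with inside peaks, while the share of all protein-coding genes was then 37.2%. The collagen counts under the other alternatives stayed within 1.5 times those reported. Counting starts inside the gene and counting Col4a1 and Col4a2 once were chosen after seeing the data. No paired analysis was possible because each cell number has 1 library and no test was made. Depth is unknown, so that a missing peak is only a missing entry in a list.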
